A study of Canis lupus familiaris with 6 samples.

Results

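The genes examined were 10 subunits, inhibitors and regulators of the transcription factor NF-kappa B, taken by gene name. They were NFKB1, NFKB2, REL, RELA, RELB, NFKBIA, NFKBIE, IKBKB, CHUK and TNFAIP3. Of the 10 names, 9 had a row among the 31512 genes of the deposited expression table, and all 9 passed the filter on low values that left 9847 genes for testing. NFKBIE had no row under its name. Whole blood was drawn on day 30 from adult Beagle dogs, and 1 RNA-seq library was made per dog. The CONT group (3 dogs) received a control snack, and the CPP-Se group (3 dogs) received the same snack with casein phosphopeptide-selenium, a chelate of selenium with peptides of milk casein. All dogs ate the same maintenance food, and no other treatment is named. The comparison of CPP-Se with CONT asks which blood transcripts differ after supplementation.

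NF-kappa B is a family of paired DNA-binding proteins made of RELA (p65), REL, RELB, p50 and p52. The last pair is cut from the longer precursors encoded by NFKB1 and NFKB2. In resting leukocytes, inhibitor (I kappa B) proteins hold the dimers in the cytoplasm. Signals from cytokine, antigen and Toll-like receptors activate the I kappa B kinases IKBKB and CHUK, the inhibitor is phosphorylated and degraded, and the freed dimer enters the nucleus. NFKBIA and TNFAIP3 are themselves NF-kappa B target genes, and their proteins close a negative feedback loop. A transcript level in blood is therefore not a measure of NF-kappa B activity, which is set largely at the protein level.

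The deposited unit was FPKM, a fragment count corrected for the length of the gene and the size of the library, and it gave back 6598173 to 8067034 gene reads per dog. CPP-Se dog 2 stood apart in its RNA composition, since 8 hemoglobin genes made up 36.6% of its gene reads, compared with a range of 48.7% to 55.9% for the remaining 5. Reads and FPKM together gave effective library sizes of 0.882 to 1.65 times the gene reads, highest in the same dog. Median-of-ratios factors of the deposited values lay between 0.992 and 1.01, so a correction for composition was already in them. All levels below are FPKM, which allows comparison between genes, and each mean is given ± SD with n = 3 dogs per group.

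All 9 genes were transcribed in canine blood, at levels that ranged from abundant to barely above the filter. RELA, the main transactivating subunit, had the highest mean over the 6 dogs (45.5 FPKM), above 90.8% of the tested genes. It was followed by NFKBIA (35.1 FPKM), NFKB2 (19.4), RELB (13.9), NFKB1 (11.5), IKBKB (8.41), TNFAIP3 (3.55), REL (1.81) and CHUK (1.48, above 11.0% of the tested genes). The median tested gene had a mean of 5.11 FPKM. Only IKBKB and TNFAIP3 were neighbours in this order whose ranges over the 6 dogs were separated. RELA lay above NFKBIA in 5 of 6 dogs, the exception being CONT dog 1, and NFKBIA lay above NFKB2 in 5 of 6, the exception being CPP-Se dog 1. The steps from NFKB2 through RELB, NFKB1, IKBKB and TNFAIP3 to REL had the same order in all 6 dogs, although most of the ranges overlapped. REL lay above CHUK in 4 of 6 dogs, and this pair could not be ordered beyond its spread. RELA and NFKBIA together made up 49.8% to 62.0% of the summed FPKM of the 9 genes. That sum was 175, 144 and 156 FPKM in CONT dogs 1, 2 and 3, and 121, 128 and 121 FPKM in CPP-Se dogs 1, 2 and 3.

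**Figure D1:**
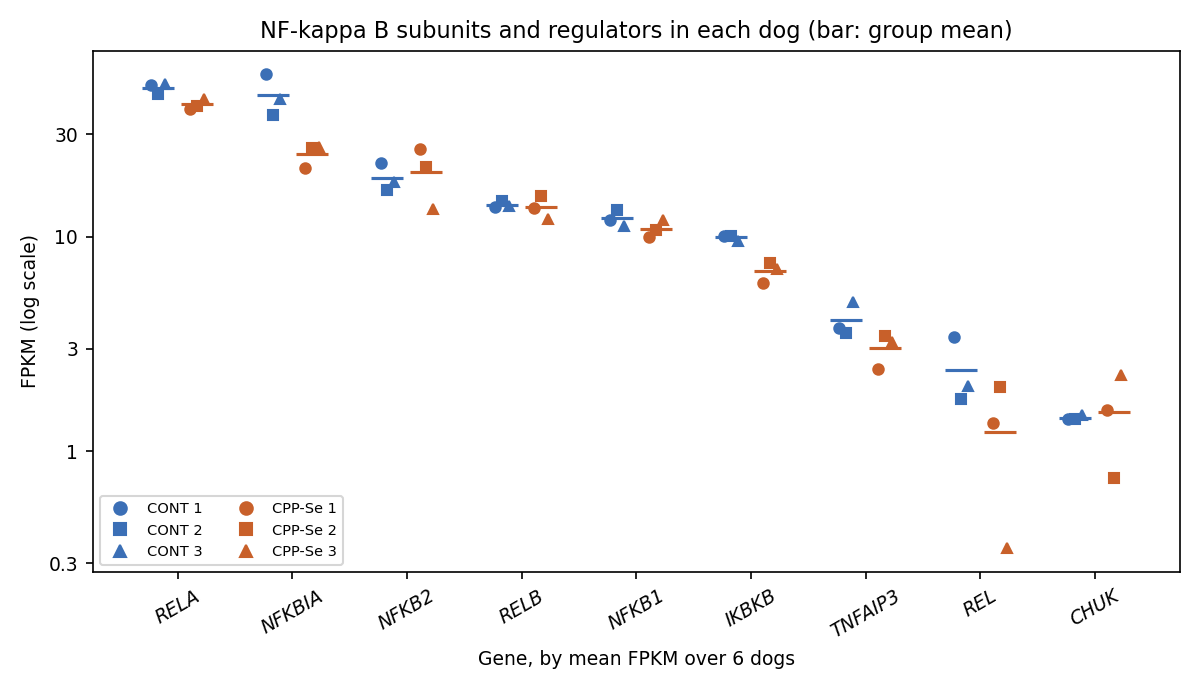
FPKM of the 9 genes on a log axis, ordered by their mean over 6 dogs, with 1 point per dog (blue CONT, orange CPP-Se) and a bar at each group mean. The CPP-Se points of NFKBIA (20.8 to 26.2 FPKM), IKBKB (6.09 to 7.53 FPKM), RELA and TNFAIP3 all lie below the CONT points, and the points of the other 5 genes overlap.

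Among the subunits, RELA was the one whose groups did not overlap. RELA (ENSCAFG00000013334, chromosome 18, 51550040 to 51558875, plus strand, in the Ensembl release 100 dog genome used for all positions here) encodes the p65 subunit, the partner of p50 in the classical dimer. Its level was 51.1, 46.1 and 51.5 FPKM in CONT dogs 1, 2 and 3, and 39.3, 40.8 and 44.1 FPKM in CPP-Se dogs 1, 2 and 3. The highest CPP-Se dog was thus below the lowest CONT dog. The means were 49.6 ± 2.98 and 41.4 ± 2.46 FPKM, 16.5% lower in CPP-Se. On log2(FPKM + 1), the scale of every fold change of a single gene below, the difference was -0.25 (SE 0.17, 95% interval -0.64 to 0.13, limma adjusted p = 0.503), so the difference was not distinguished from 0. The row of KAT5 covers the whole RELA locus on the other strand with a mean of 165 reads, and the library kit does not mark strand.

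NFKB1 (ENSCAFG00000010730, chromosome 32, 23942954 to 24040703, plus strand) encodes the p105 precursor of p50. It was measured at 11.96, 13.3 and 11.3 FPKM in the CONT dogs and at 9.97, 10.7 and 11.96 FPKM in the CPP-Se dogs. CPP-Se dog 3 lay within the CONT range, and the means of 12.2 ± 1.05 and 10.9 ± 1.00 FPKM differed by -0.15 (SE 0.17, 95% interval -0.54 to 0.24, adjusted p = 0.706). Leaving out 1 dog moved the difference of NFKB1 between -0.21 without CPP-Se dog 3 and -0.09 without CONT dog 2. Its end overlaps that of MANBA on the other strand, a row with a mean of 144.5 reads.

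REL (ENSCAFG00000002981, chromosome 10, 60990197 to 61023663, plus strand) encodes c-Rel, a subunit best known from lymphocytes. Its level was 3.42, 1.74 and 2.01 FPKM in the CONT dogs and 1.35, 1.99 and 0.352 FPKM in the CPP-Se dogs. CPP-Se dog 2 lay within the CONT range. The means of 2.39 ± 0.900 and 1.23 ± 0.826 FPKM differed by -0.65 (SE 0.35, 95% interval -1.46 to 0.17, adjusted p = 0.414), the widest interval of the 9 genes. Few reads lay behind these values: CONT dogs 1, 2 and 3 had 65, 31 and 45, and CPP-Se dogs 1, 2 and 3 had 24, 74 and 6. The 6 reads of CPP-Se dog 3 allow 0.129 to 0.766 FPKM (exact Poisson 95% interval, counting error only). The difference in REL was -0.32 without CPP-Se dog 3, -0.44 without CONT dog 1 and -0.90 without CPP-Se dog 2.

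The pair of the alternative pathway, in which RELB binds the p52 product of NFKB2, gave no separation of the groups. NFKB2 (ENSCAFG00000010155, chromosome 28, 14902706 to 14910395, plus strand) was measured at 22.1, 16.4 and 17.9 FPKM in the CONT dogs and at 25.5, 21.1 and 13.4 FPKM in the CPP-Se dogs. The highest and the lowest of the 6 dogs were both in the CPP-Se group. The difference of the means of 18.8 ± 2.91 and 20.004 ± 6.13 FPKM was 0.05 (SE 0.26, 95% interval -0.55 to 0.65, adjusted p = 0.947), and its sign turned when CONT dog 2, CPP-Se dog 1 or CPP-Se dog 2 was left out. PSD, which overlaps NFKB2 on the other strand, had a mean of 5.33 reads. RELB (ENSCAFG00000004597, chromosome 1, 110436662 to 110466809, minus strand) had 13.8, 14.7 and 13.9 FPKM in the CONT dogs and 13.6, 15.4 and 12.2 FPKM in the CPP-Se dogs. The CPP-Se dogs spread to either side of the CONT dogs. The means of 14.1 ± 0.478 and 13.7 ± 1.65 FPKM differed by -0.04 (SE 0.17, 95% interval -0.44 to 0.35, adjusted p = 0.925), an interval that leaves out any fold change of RELB beyond 1.5 times in either direction.

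The inhibitor NFKBIA was lower in every CPP-Se dog and, on the log2(FPKM + 1) scale, had the largest difference of the 9 genes. By the ratio of means REL, with few reads, was 48.6% lower, and its difference was beyond that of NFKBIA with a pseudocount of 0.1 (-1.11 against -0.90) and in the 3 read-based fits. NFKBIA (ENSCAFG00000013418, chromosome 8, 14100671 to 14103433, minus strand) encodes I kappa B alpha, which retains RELA-containing dimers in the cytoplasm and is resynthesised after their activation. Its level was 57.1, 36.9 and 43.8 FPKM in CONT dogs 1, 2 and 3, and 20.8, 26.0 and 26.2 FPKM in CPP-Se dogs 1, 2 and 3. The lowest CONT dog was above the highest CPP-Se dog, and the CONT dogs were more spread out. The means were 45.9 ± 10.3 and 24.4 ± 3.07 FPKM, 47.0% lower in CPP-Se. The difference was -0.87 (SE 0.22, 95% interval -1.37 to -0.37), and the limma adjusted p of 0.162 was above the threshold of 0.05, so NFKBIA was not called. These values rested on 147 to 430 reads per dog. The difference was negative each time a dog was left out, between -1.02 without CONT dog 2 and -0.71 without CONT dog 1, and was -0.92 without CPP-Se dog 2.

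The call for NFKBIA depended on the test. A negative binomial model of whole reads gave -0.91 (SE 0.24, adjusted p = 0.0107) and called NFKBIA, in a fit that called 393 of the 9847 genes (3.99% in either direction, 2.50% lower). It was the only setting here to do so. The authors' own test, DESeq2, was also a model of read counts, with the same adjusted p and fold thresholds. Its calls are not compared here. limma-voom with sample quality weights, which called 1.58% of the tested genes, gave -1.07 with an adjusted p of 0.0525. Over all other settings the adjusted p lay between 0.0525 and 0.572. In whole blood, fewer cells of a type and less RNA per cell cannot be told apart, for NFKBIA as for every other gene here.

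For I kappa B epsilon, an inhibitor that like I kappa B alpha binds RELA and REL dimers, a row without a symbol carried the description of the NF-kappa-B inhibitor epsilon (ENSCAFG00000001985, chromosome 12, 12669187 to 12673732, minus strand). Of the 10 nearest RefSeq neighbours of NFKBIE, 5 on each side, 8 were also near this row. It was not counted as a member, since its name is not in the table. Its level was 9.97, 5.74 and 10.3 FPKM in the CONT dogs and 9.54, 10.01 and 4.56 FPKM in the CPP-Se dogs. The groups overlapped, with 1 low dog in each, and the means of 8.68 ± 2.54 and 8.04 ± 3.02 FPKM differed by -0.12 (SE 0.33, 95% interval -0.88 to 0.63, adjusted p = 0.888).

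Of the 2 catalytic kinase subunits, IKBKB was lower in every CPP-Se dog and CHUK was not. IKBKB (ENSCAFG00000005526, chromosome 16, 23359813 to 23419075, minus strand) encodes IKK beta, the kinase that marks I kappa B alpha for degradation in the classical pathway. It was measured at 10.1, 10.1 and 9.56 FPKM in the CONT dogs and at 6.09, 7.53 and 7.06 FPKM in the CPP-Se dogs. The CONT dogs lay close together and the groups did not overlap, a pattern found in this direction in 12.6% of all tested genes. The means of 9.92 ± 0.316 and 6.89 ± 0.730 FPKM, 30.5% lower in CPP-Se, differed by -0.47 (SE 0.17, 95% interval -0.86 to -0.09). The limma adjusted p was 0.250, and the change did not reach 1.5-fold. No setting called IKBKB, whose difference without CPP-Se dog 2 was -0.53.

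CHUK (ENSCAFG00000009588, chromosome 28, 12965479 to 13001512, minus strand) encodes IKK alpha, the kinase needed to process the NFKB2 precursor in the alternative pathway. Its level was 1.41, 1.41 and 1.48 FPKM in the CONT dogs and 1.56, 0.747 and 2.26 FPKM in the CPP-Se dogs. The CPP-Se dogs lay on both sides of the narrow CONT range. The means of 1.43 ± 0.0392 and 1.52 ± 0.756 FPKM differed by 0.00 (SE 0.28, 95% interval -0.65 to 0.66, adjusted p = 0.995), from 28 to 43 reads per dog. The counting error was wider than the spread of the CONT dogs, since the 28 reads of CONT dog 2 allow 0.937 to 2.04 FPKM (exact Poisson 95% interval). Its sign varied between settings.

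TNFAIP3 (ENSCAFG00000000267, chromosome 1, 30251059 to 30261001, plus strand) encodes A20, a ubiquitin-editing enzyme that switches off signalling upstream of the kinases. It was measured at 3.74, 3.54 and 4.95 FPKM in the CONT dogs and at 2.42, 3.45 and 3.22 FPKM in the CPP-Se dogs. The groups did not overlap, but CONT dog 2 and CPP-Se dog 2 were nearly level. The means of 4.08 ± 0.760 and 3.03 ± 0.542 FPKM, 25.7% lower in CPP-Se, differed by -0.33 (SE 0.21, 95% interval -0.81 to 0.14, adjusted p = 0.479). The difference in TNFAIP3 was -0.21 without CONT dog 3, -0.22 without CPP-Se dog 1 and -0.41 without CPP-Se dog 2.

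Taking the 9 genes as a list, 0 passed an adjusted p of 0.05 with a 1.5-fold change in limma, where 3 of 9847 genes did (0.0305%), all lower in CPP-Se. At an unadjusted p under 0.05 there were 2 members, NFKBIA and IKBKB, both lower, against 16.0% of all tested genes in either direction and 9.10% lower. The negative binomial model called 1 member, NFKBIA. In 4 members, NFKBIA, IKBKB, RELA and TNFAIP3, all CPP-Se dogs lay below all CONT dogs, a pattern found in 12.6% of all tested genes. The opposite pattern was found in 0 members and in 10.4% of all tested genes. Of the 9 differences, 7 were below 0, against 50.4% of all tested genes, and their median was -0.25, against -0.00 over all tested genes. The members share the same 6 dogs and are not independent of each other. Without CPP-Se dog 2 the differences were -0.14 for NFKB1, -0.24 for RELA, -0.13 for RELB and 0.25 for CHUK, and 0 members passed the threshold. The 95% intervals of 7 members span 0, and the intervals of NFKBIA and IKBKB do not.

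**Figure D2:**
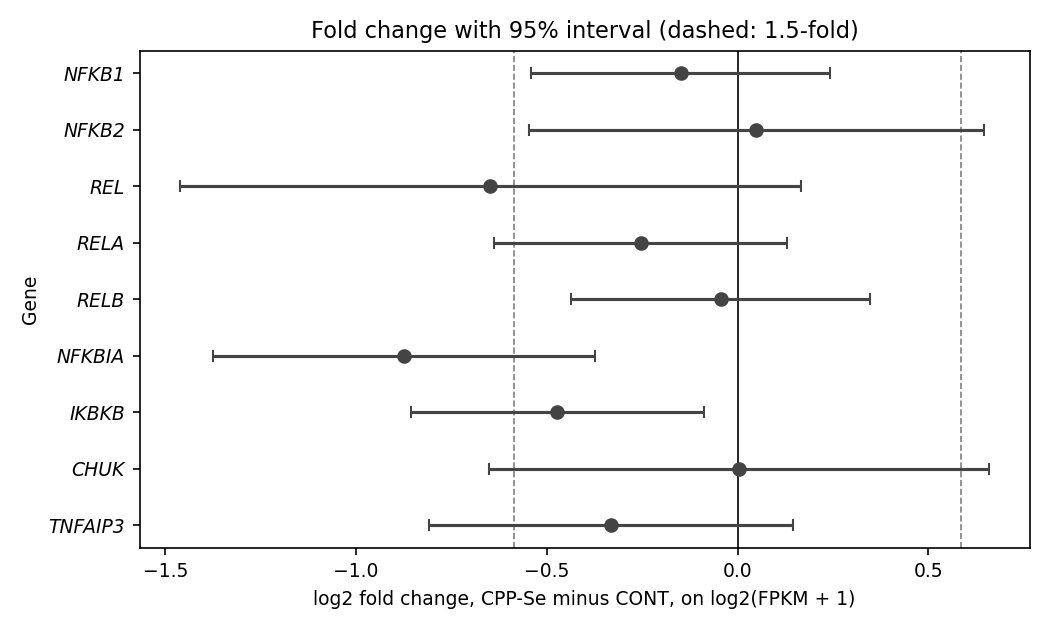
Difference in log2(FPKM + 1), CPP-Se minus CONT, for each of the 9 genes, with the limma 95% interval as a bar and dashed lines at a 1.5-fold change. The intervals of NFKBIA (-1.37 to -0.37) and IKBKB (-0.86 to -0.09) lie below 0, and the other 7 span it.

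The level of an inhibitor relative to the subunit it binds was compared within each dog, which removes any scaling factor shared by the 2 genes. The ratio of NFKBIA to RELA was 1.12, 0.801 and 0.850 in CONT dogs 1, 2 and 3, and 0.530, 0.637 and 0.595 in CPP-Se dogs 1, 2 and 3. The groups did not overlap, with means of 0.923 ± 0.171 and 0.587 ± 0.0542. The log2 difference was -0.64, with p = 0.1 in a two-sided exact permutation test, the smallest that 3 dogs against 3 can give, and 0.3 after adjustment over the 3 ratios tested. Because a lower NFKBIA with a smaller difference in RELA defines this ratio, it adds no separate evidence on NFKBIA.

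The CONT dogs had ratios of TNFAIP3 to RELA of 0.0733, 0.0768 and 0.0961, and the CPP-Se dogs had ratios of 0.0616, 0.0846 and 0.0729. These groups overlapped (log2 difference -0.17, exact permutation p = 0.4, adjusted p = 0.4), and the difference was -0.05 without CONT dog 3 or without CPP-Se dog 1 and -0.28 without CPP-Se dog 2. For the kinases, the CONT dogs had ratios of CHUK to IKBKB of 0.140, 0.139 and 0.155, and the CPP-Se dogs had ratios of 0.255, 0.0993 and 0.320. It was higher than in any CONT dog in CPP-Se dogs 1 and 3 and lower in CPP-Se dog 2 (log2 difference 0.48, exact permutation p = 0.4, adjusted p = 0.4). This difference was 0.98 without CPP-Se dog 2, 0.30 without CPP-Se dog 1 and 0.14 without CPP-Se dog 3.

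**Figure D3:**
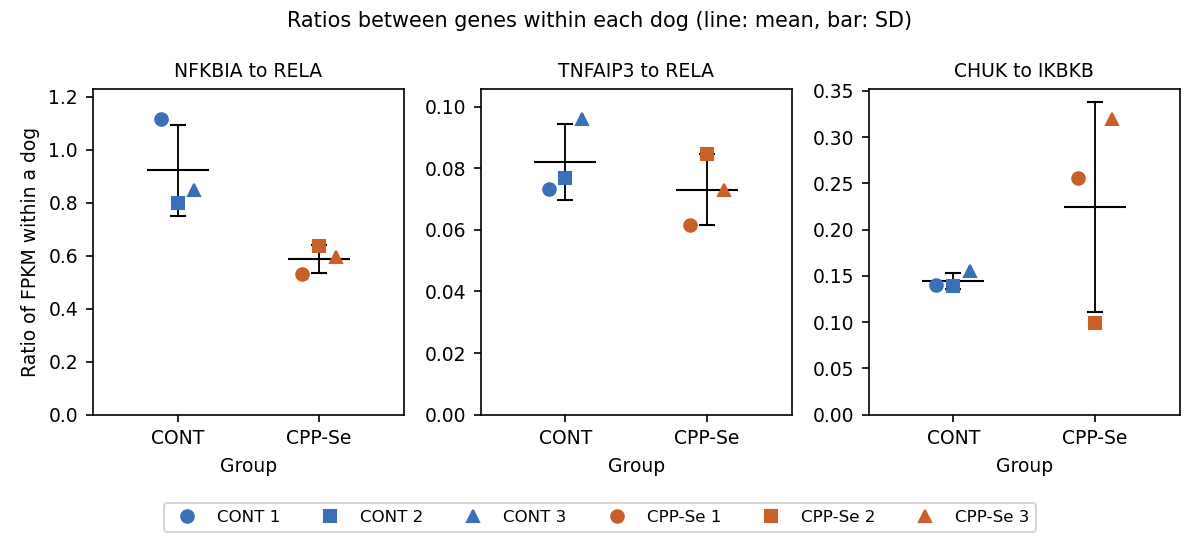
Ratio of FPKM within each dog for NFKBIA to RELA, TNFAIP3 to RELA and CHUK to IKBKB, with 1 point per dog, a line at the group mean and a bar for the SD. The NFKBIA to RELA ratio is 0.801 or more in the CONT dogs and 0.637 or less in the CPP-Se dogs, and the other ratios overlap.

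The other genes of the pathway were taken as 4 lists with 71 genes in all, of which 70 had a row and 60 were tested. In limma 0 of the 60 passed the threshold, the smallest adjusted p being 0.138. The CPP-Se dogs all lay below the CONT dogs in 12 of the 60 and above them in 6, where 12.6% and 10.4% of all tested genes did so. These 2 shares are also the background for the counts without overlap in each list below. Of the 60 differences, 35 were below 0 (50.4% over all tested genes), with a median of -0.24 (-0.00 over all tested genes).

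The remaining I kappa B proteins and the scaffold subunit IKBKG overlapped between the groups in 5 of 5 genes. NFKBIB, which encodes I kappa B beta, was measured at 13.3 ± 2.91 FPKM in CONT and 18.2 ± 4.46 FPKM in CPP-Se (difference 0.42, adjusted p = 0.446). NFKBIZ, a nuclear inhibitor-like protein, had a difference of -0.30 (adjusted p = 0.524). BCL3, a nuclear partner of p50 and p52, had a difference of -0.43 (adjusted p = 0.542). So 4 of these 5 genes had a difference below 0, and NFKBIB did not.

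Of the kinases and adaptors upstream of the IKK complex, 24 of 26 were tested, with a median difference of 0.06 (4 lower and 3 higher without overlap). BIRC3, a ubiquitin ligase of the TNF receptor complex and itself an NF-kappa B target, was measured at 18.9 ± 0.525 FPKM in CONT and 12.8 ± 1.36 FPKM in CPP-Se (difference -0.53, adjusted p = 0.207). TRADD, an adaptor of the TNF receptor, was measured at 12.3 ± 0.311 and 17.3 ± 1.25 FPKM (0.46, adjusted p = 0.246). TRADD was higher and BIRC3 was lower in every CPP-Se dog.

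Among the negative regulators, 12 of 13 were tested and the median difference was -0.34 (1 lower and 1 higher without overlap). TANK, an adaptor that restrains signalling through TRAF proteins, was measured at 5.87 ± 0.879 FPKM in CONT and 3.38 ± 0.411 FPKM in CPP-Se (-0.64, adjusted p = 0.189). ZC3H12A, which encodes the RNase regnase-1, was measured at 9.24 ± 2.73 and 15.4 ± 4.74 FPKM (0.68, adjusted p = 0.290). The linear-ubiquitin protease OTULIN overlapped between the groups, at 6.45 ± 2.28 and 3.81 ± 0.711 FPKM (-0.60, adjusted p = 0.317).

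Of the 30 target genes on the list, 22 were tested, with a median difference of -0.27 (8 lower and 2 higher without overlap). Of the 22 differences, 13 were below 0. The chemokine gene CCL4 was measured at 0.854, 1.03 and 1.36 FPKM in the CONT dogs and at 9.10, 3.605 and 7.97 FPKM in the CPP-Se dogs (1.85, SE 0.32, adjusted p = 0.138). CXCL8, which encodes the neutrophil attractant interleukin-8, was measured at 5.86, 3.98 and 5.89 FPKM in the CONT dogs and at 0.991, 3.15 and 0.718 FPKM in the CPP-Se dogs (-1.35, adjusted p = 0.173). BCL2L1, an anti-apoptotic gene also strongly transcribed in red cell precursors, was measured at 37.5 ± 6.20 and 72.6 ± 18.7 FPKM (0.92, adjusted p = 0.176). CCL4 and BCL2L1 were higher in every CPP-Se dog and CXCL8 was lower in every CPP-Se dog. The negative binomial model called CCL4 (adjusted p = 7.4e-05) and BCL2L1 (adjusted p = 0.0226). The row named CCL4 is described in the table as C-C motif chemokine 3, a close paralog, so reads of the 2 genes may not be separated.

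**Figure D4:**
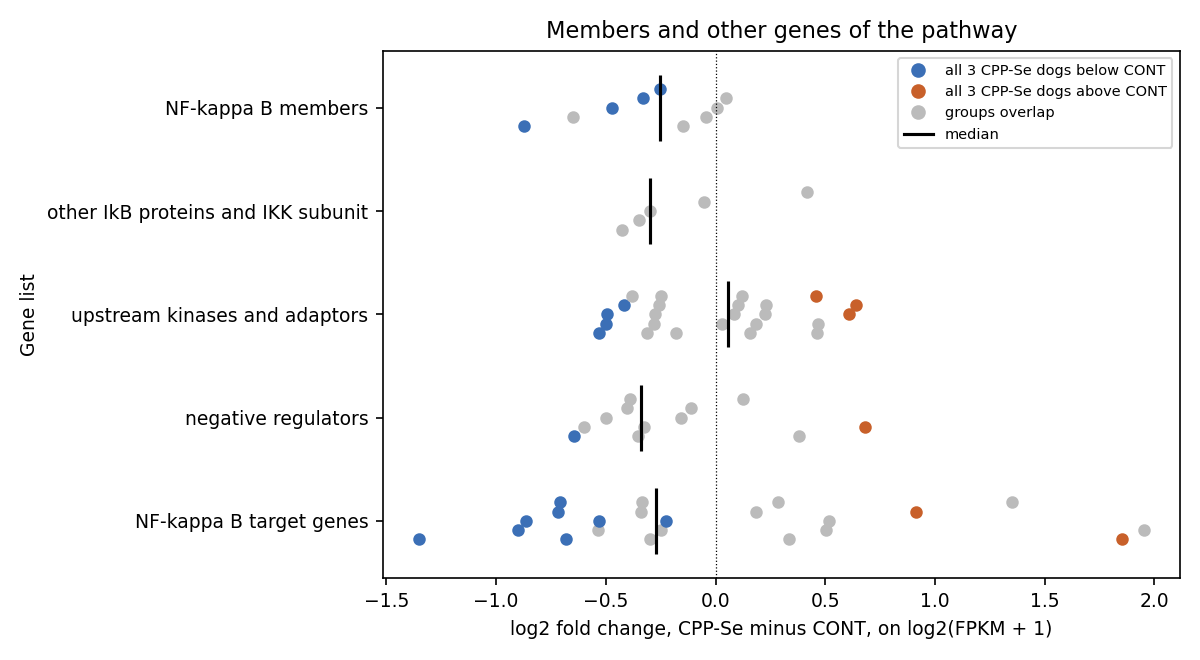
Difference in log2(FPKM + 1), CPP-Se minus CONT, for the 9 members and for the tested genes of 4 pathway lists, with 1 point per gene and a line at each median. Blue points are genes in which all CPP-Se dogs lie below all CONT dogs, orange points the opposite and grey points overlap. The medians lie between -0.34 and 0.06, and the targets spread to both sides of 0.

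Whole blood mixes cell types, and markers of several of them differed between the groups in the same dogs as NFKBIA. In limma 0 genes of any marker list passed the threshold, and the negative binomial model called some, counted below with each list (over all tested genes it called 2.50% lower and 1.49% higher). For 8 monocyte genes, the summed level was 779 to 911 FPKM in CONT and 356 to 431 FPKM in CPP-Se, with a median difference of -0.93 and 7 of 8 genes lower without overlap (3 called lower by the negative binomial model). For 6 neutrophil genes, it was 2105 to 2839 FPKM in CONT and 1173 to 1770 FPKM in CPP-Se, with a median of -0.74 and 3 of 6 genes lower without overlap (1 called lower). The summed myeloid markers thus separated the groups in the direction of NFKBIA, IKBKB, RELA and TNFAIP3. CD14 of the monocyte list and FPR1, S100A9, PADI4 and VNN2 of the neutrophil list had no row of that name.

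The lymphocyte markers lay mostly the other way. For 7 B cell genes, the sum was 273 to 392 FPKM in CONT and 414 to 459 FPKM in CPP-Se, with a median difference of 0.66 and 4 of 7 genes higher without overlap (1 called higher by the negative binomial model). For 7 NK and cytotoxic cell genes, it was 10.2 to 19.7 and 31.9 to 49.2 FPKM, with a median of 1.07 over the 5 tested and 3 of those 5 higher without overlap (3 called higher). For 10 T cell genes, the median difference was 0.81, with 6 higher and 1 lower without overlap (5 called higher). Their sum was instead lower in CPP-Se (1036 to 1357 against 901 to 1015 FPKM), because CD4, which canine neutrophils also express, made up most of it and was measured at 1041 ± 204 and 678 ± 102 FPKM. The median and the sum of the T cell list thus differ in sign.

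Immediate early genes, which respond within minutes to handling as well as to stimulation, had a sum of 504 to 574 FPKM over 10 genes in CONT and 386 to 417 FPKM in CPP-Se, with a median of -0.67 over the 6 tested and 4 of those 6 lower without overlap (3 called lower by the negative binomial model). EGR1 of this list, below the filter and not tested, was instead higher in every CPP-Se dog (CONT 0.645 ± 0.228, CPP-Se 1.26 ± 0.237 FPKM). NFKBIA and TNFAIP3 also respond early to stimulation. The sums overlapped between the groups for 8 red cell genes (1151 to 2417 against 948 to 2367 FPKM), 4 platelet genes (701 to 1480 against 499 to 1759 FPKM), 6 eosinophil, basophil and mast cell genes (9.94 to 18.4 against 5.32 to 41.7 FPKM) and 7 epithelial and endothelial genes (5.19 to 12.8 against 11.5 to 21.7 FPKM). Their median differences were 0.55, -0.14, 0.21 and 0.22, and the negative binomial model called 1 red cell gene and 1 gene of the eosinophil, basophil and mast cell list higher. No marker gene was at 0 in all dogs. The part of cell composition and of immediate early response in the differences of NFKBIA, IKBKB, RELA and TNFAIP3 was not tested.

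**Figure D5:**
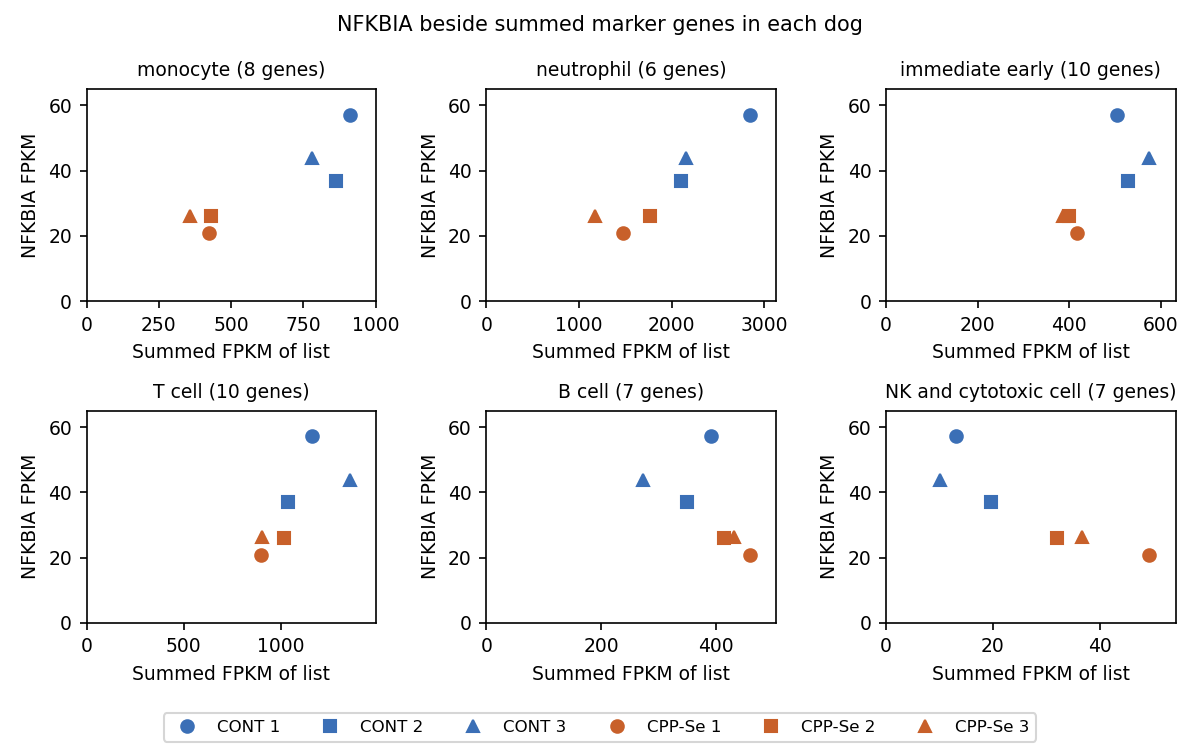
FPKM of NFKBIA against the summed FPKM of the 6 marker lists (monocyte, neutrophil, immediate early, T cell, B cell, NK and cytotoxic cell) whose sums did not overlap between the groups, with 1 point per dog (blue CONT, orange CPP-Se, shape by dog number). The separation along the horizontal axis follows from that choice, for example 356 to 431 against 779 to 911 FPKM of monocyte genes, and the 4 lists with overlapping sums are not drawn.

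The genes whose pattern over the 6 dogs was most like that of NFKBIA, by Pearson correlation of log2(FPKM + 1), were CCPG1 (r = 0.997), PSTPIP2 (0.993), GPR137B (0.989), GNG2 (0.987) and ARRB1 (0.984). All 5 were lower in every CPP-Se dog, which largely follows from choosing them for likeness to NFKBIA. Their differences were -0.62, -0.67, -0.95, -0.81 and -0.59, and none passed the threshold. Of the other members, RELA (0.945) and IKBKB (0.919) were the most like NFKBIA, followed by TNFAIP3 (0.744), REL (0.682), NFKB1 (0.550), RELB (0.119), CHUK (-0.03) and NFKB2 (-0.07). These correlations over 6 dogs hold the contrast between the groups and the libraries in common, and are a description.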

How the data were processed

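The authors extracted whole blood RNA with Trizol, enriched poly-A mRNA, prepared libraries with the NEBNext Ultra kit, aligned reads to the Ensembl release 100 dog genome with HISAT2 2.0.5 and deposited FPKM per gene. The submitters' processing notes also name CASAVA 2.19, fastp 0.19.7 and featureCounts 1.5.0-p3. The strand setting of the counting is not given in the sources used here. FPKM multiplied by gene length gave whole reads (within 0.05) for 100% of genes, and 6598173 to 8067034 reads per dog limit the precision.

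Dogs were grouped by library name, as separate biological replicates. Genes averaging 1 FPKM or more were tested on log2(FPKM + 1) with limma 3.58.1 in R 4.3.3 (eBayes with trend, two-sided, Benjamini-Hochberg over 9847 genes). Thresholds were an adjusted p under 0.05 and 1.5-fold. Ratios were compared by exact permutation tests, and tables and figures were made with Python 3.11.15 (pandas 2.3.3, numpy 2.4.6, scipy 1.17.1, matplotlib 3.10.9). Alternatives were other pseudocounts, filters, scalings, variance models and weights, a replicate block, limma-voom and a negative binomial model with shrunken dispersions on recovered reads, and each dog left out. Scripts were tested on simulated data. Members, lists and alternatives were chosen with earlier results of these data known. All members were named, with the 3 smallest p of each pathway list and the 5 genes most like NFKBIA, except that 1 gene the rule covers is not reported here. CD4, EGR1, ICAM1, IL6, MMP9 and TNF were named after their values were seen.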

Additional observations from a re-analysis of the deposited data

How the results depend on the processing

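The number of members past the threshold (0) was 1 in the negative binomial model, NFKBIA, and 0 in the other settings. The number among all tested genes (3) was 0 with a pseudocount of 0.1 and with no filter, 1 with a filter at 5 FPKM, with limma-voom and with the replicate block, 12 after scaling to a common sum, 156 with voom quality weights, 393 in the negative binomial model, and 0 to 14 with a dog left out (14 without CPP-Se dog 2). The number of other pathway genes (0) was 1 (CCL4) with a common sum and with voom quality weights, 3 (BCL2L1 and CCL4 among them) in the negative binomial model, and 0 to 2 with a dog left out (2, CCL4 and MMP9, without CPP-Se dog 2). The differences of NFKB1, REL, RELA, NFKBIA, IKBKB and TNFAIP3 stayed below 0 in every setting that tested them (the filter at 5 FPKM left out REL, TNFAIP3 and CHUK). NFKB2 (main 0.05) was -0.04, -0.14 and -0.01 without CONT dog 2, CPP-Se dog 1 and CPP-Se dog 2, and reached 0.30 without CPP-Se dog 3. RELB (main -0.04) was 0.11 with a common sum, 0.10 with a common sum without hemoglobin, 0.0064 with array weights, and -0.13 to 0.034 with a dog left out. CHUK (main 0.00) was -0.042 with a pseudocount of 0.1, -0.11 with array weights, -0.26 with voom, -0.18 with voom quality weights, and -0.20 to 0.25 with a dog left out. The cause was not tested. The common-sum scalings moved the median of all genes by 0.13 and 0.12. Relative to it, NFKBIA was at -0.85 in both and RELB at -0.02. The ratios kept their direction, at -0.74 to -0.49, -0.28 to -0.05 and 0.14 to 0.98 with a dog left out. Replicate numbers did not pair the dogs, since deviations of same-numbered dogs correlated at 0.016, -0.090 and -0.043 and not every dog was most like its number. With the replicate block NFKBIA had an adjusted p of 0.285. Depth limits REL and CHUK, with fewer than 50 mean reads.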

Other observations

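Of the 30 listed NF-kappa B target genes, 8 lay under a mean of 1 FPKM in this blood and were not tested: TNF, IL1A, IL6, CCL3, ICAM1, CD83, PTGS2 and PTX3. TNF, the cytokine that both activates NF-kappa B and is induced by it, was measured at 0.810, 0.173 and 0.550 FPKM in the CONT dogs and at 0.518, 1.66 and 1.81 FPKM in the CPP-Se dogs. The groups overlapped, from 1 to 20 reads per dog. The adhesion gene ICAM1 was measured at 0.860 ± 0.249 and 0.623 ± 0.192 FPKM (SD, n = 3). IL6 had 0 reads in all 6 dogs, which allows up to 3 reads per library (one-sided 95% limit for a count of 0, counting error only). The protease gene MMP9, a target stored in neutrophil granules, was measured at 96.3, 68.3 and 86.1 FPKM in the CONT dogs and at 729, 23.7 and 540.0 FPKM in the CPP-Se dogs, and was chosen for mention after its values were seen. CPP-Se dogs 1 and 3 were above every CONT dog in MMP9 and CPP-Se dog 2 was below every CONT dog. With all dogs the difference in MMP9 was 1.35 (SE 1.14, limma adjusted p = 0.606), and without CPP-Se dog 2 it was 2.91 (limma adjusted p = 0.0357). The second fit leaves out the only CPP-Se dog below the CONT dogs, so its p-value is not evidence of a difference in MMP9.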
